A study of Mus musculus with 2 samples.

Results

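The nuclear genes of oxidative phosphorylation were taken by name from the 22480 gene rows: all names that begin with Nduf and a subunit letter and number, Sdha to Sdhd, and all that begin with Uqcr, Cox4 to Cox8 or Atp5. These patterns found 82 genes, of which, by name, 35 were counted under complex I, 4 under complex II, 8 under complex III, 19 under complex IV and 16 under complex V. A name alone does not show that a gene encodes a structural subunit. Ndufa4 and Ndufa4l2 carry complex I names and were counted under complex IV, where the Ndufa4 protein is now placed. The expression of these genes was compared over the cell classes of 2 single-cell libraries of mouse spinal cord. The first library came from cord at 3 days post injury (3 dpi) and the second from sham cord, each of them from 10 pooled C57BL/6 mice, 5 male and 5 female, at 8 weeks of age, with 8 mm of cord around the injury site taken. The labels name no genetic change in either group, and the injury's type was not given in the sources used here. Each group was 1 library of pooled mice, so no test was made, and injury cannot be told apart from library or batch.

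Oxidative phosphorylation takes place in the inner mitochondrial membrane. Complexes I and II pass electrons from NADH and succinate to ubiquinone, complex III passes them to cytochrome c and complex IV to oxygen, and complexes I, III and IV pump protons whose return through complex V, the ATP synthase, drives ATP synthesis. Most subunits are encoded in the nucleus, and the few encoded in mitochondrial DNA had no row in these tables (0 mitochondrial rows). In the nervous system neurons are known for their use of this pathway. Microglia and macrophages are known to shift between this pathway and glycolysis when activated.

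The 3 dpi library held 149291783 unique molecular identifiers (UMIs, single captured RNA molecules) in 13594 barcodes and the sham library 76889038 UMIs in 10138 barcodes. After removal of 1476 and 820 called doublets, 12108 cells at 3 dpi and 9306 cells in sham were kept, with median depths of 8500.5 and 5313 UMIs. The libraries shared 39 barcode sequences. Cells were clustered without the 82 genes, and clusters were named "-like" from markers, which gave 10 named classes and 6 clusters without a name. Levels are UMIs per 1000000 UMIs of a class in a library (CPM). The kit counts molecules from their 3′ ends, so a level carries no term for gene length. Intervals in brackets are at 95% and take in the error of counting, but no differences among mice, cells or libraries. The 82 genes took 2.52% of all UMIs at 3 dpi and 2.06% in sham.

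Promoters of the genes at either end of the change in microglia-like cells are shown first, since those cells had the largest change of the classes compared, as described further on. The windows are RefSeq promoters of build GRCm38.p6, from 250 bases before to 50 bases after the start of transcription, and so hold the upstream region and the beginning of the first exon. Uqcr10, a small complex III subunit, and Atp5k, subunit e of the ATP synthase, were among the 5 highest log2 ratios, and Sdha, the flavoprotein of complex II, and Sdhd, one of its membrane anchors, among the 5 lowest. Their windows lie at chr11:4704295-4704594 for Uqcr10, chr5:108434350-108434649 for Atp5k, chr13:74350191-74350490 for Sdha and chr9:50603800-50604099 for Sdhd, all on the minus strand, and are printed 5′ to 3′ on that strand. Capitals mark a match, on either strand, to the 10-letter NRF1 palindrome or to the ETS core CCGGAAG that GABP binds. The run of 10 capitals in Atp5k is the palindrome.
Uqcr10: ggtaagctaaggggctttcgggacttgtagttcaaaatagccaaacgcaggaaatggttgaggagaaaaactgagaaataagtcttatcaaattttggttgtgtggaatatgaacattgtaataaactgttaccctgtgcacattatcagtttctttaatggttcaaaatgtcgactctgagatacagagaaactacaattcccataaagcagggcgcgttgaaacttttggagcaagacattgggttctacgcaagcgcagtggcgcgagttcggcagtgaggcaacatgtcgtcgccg
Atp5k: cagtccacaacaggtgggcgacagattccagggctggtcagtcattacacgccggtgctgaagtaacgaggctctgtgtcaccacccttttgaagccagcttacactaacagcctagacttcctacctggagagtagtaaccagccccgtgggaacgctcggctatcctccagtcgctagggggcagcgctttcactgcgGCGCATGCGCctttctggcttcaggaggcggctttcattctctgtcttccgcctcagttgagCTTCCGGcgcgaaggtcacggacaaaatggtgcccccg
Sdha: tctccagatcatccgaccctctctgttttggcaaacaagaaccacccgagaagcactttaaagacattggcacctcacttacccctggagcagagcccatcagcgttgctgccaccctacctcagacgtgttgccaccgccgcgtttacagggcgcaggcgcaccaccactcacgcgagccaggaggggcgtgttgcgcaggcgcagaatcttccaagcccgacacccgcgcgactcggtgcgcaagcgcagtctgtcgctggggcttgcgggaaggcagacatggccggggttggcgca
Sdhd: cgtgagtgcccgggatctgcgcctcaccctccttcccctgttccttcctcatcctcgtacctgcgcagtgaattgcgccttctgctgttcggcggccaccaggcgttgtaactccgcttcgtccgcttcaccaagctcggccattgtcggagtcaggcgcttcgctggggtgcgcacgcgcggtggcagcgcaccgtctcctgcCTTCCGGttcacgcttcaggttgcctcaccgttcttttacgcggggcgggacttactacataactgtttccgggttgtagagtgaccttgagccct
NRF1 and GABP are known activators of nuclear respiratory genes. Of the 68 genes with a promoter entry (66 matched by symbol and 2 by an older symbol), 5 or 7.35% held the NRF1 palindrome, against 1.07% of 27025 genes in the table. The ETS core was found in 16 of the 68, or 23.5%, against 9.93% of all genes. The short core of the hypoxia response element, searched as ACGTG or GCGTG on both strands, was found in 66.2% of the 68 and in 46.7% of all genes. The TATA box TATAAA was found in 10.3% of the 68 and in 15.7% of all genes. Ndufa4l2 and Cox4i2 had no promoter entry and were not searched. The gene groups were not matched for base composition. None of these motifs contains another, though matches can overlap at their ends. Among the windows shown, Atp5k with a log2 ratio of 1.81 held an NRF1 palindrome and an ETS core, and Sdhd with 0.18 held an ETS core. Uqcr10 with 2.03 and Sdha with -0.13 held neither. The windows shown hold more of these motifs than others near the same ends. At the high end Cox5a, Ndufc1, Atp5g3, Atp5g1, Cox5b, Ndufb8 and Cox7b held neither. At the low end Uqcrh held an ETS core, and Cox7a2l, Ndufa6, Ndufc2, Ndufa9 and Ndufv1 held neither.

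Within each library, precursor-like cells of the oligodendrocyte lineage had the highest summed level of the 82 genes among named classes of at least 50 cells. At 3 dpi the level was 32346 CPM in precursor-like cells. Oligodendrocyte-like cells had 26182 CPM, microglia-like 24676 CPM, endothelial-like 24441 CPM, fibroblast-like 23887 CPM and monocyte- or macrophage-like cells 23254 CPM. Neutrophil-like cells were lowest with 20781 CPM, and the highest class was 1.56-fold [1.54 to 1.57] above them. In sham the level was 26264 CPM in precursor-like cells and 26184 CPM in pericyte- or smooth-muscle-like cells, whose intervals overlapped, followed by 22010.1 CPM in oligodendrocyte-like, 19918 CPM in endothelial-like and 17509 CPM in the 55 border-associated-macrophage-like cells. Oligodendrocyte markers summed to 14059 CPM in those 55 cells and to 61876 CPM in sham oligodendrocyte-like cells. Their part in the level of the 55 cells was not tested. Microglia-like cells of the sham library had 11424 CPM, and the highest class was 2.30-fold [2.27 to 2.33] above them. 

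**Figure D1:**
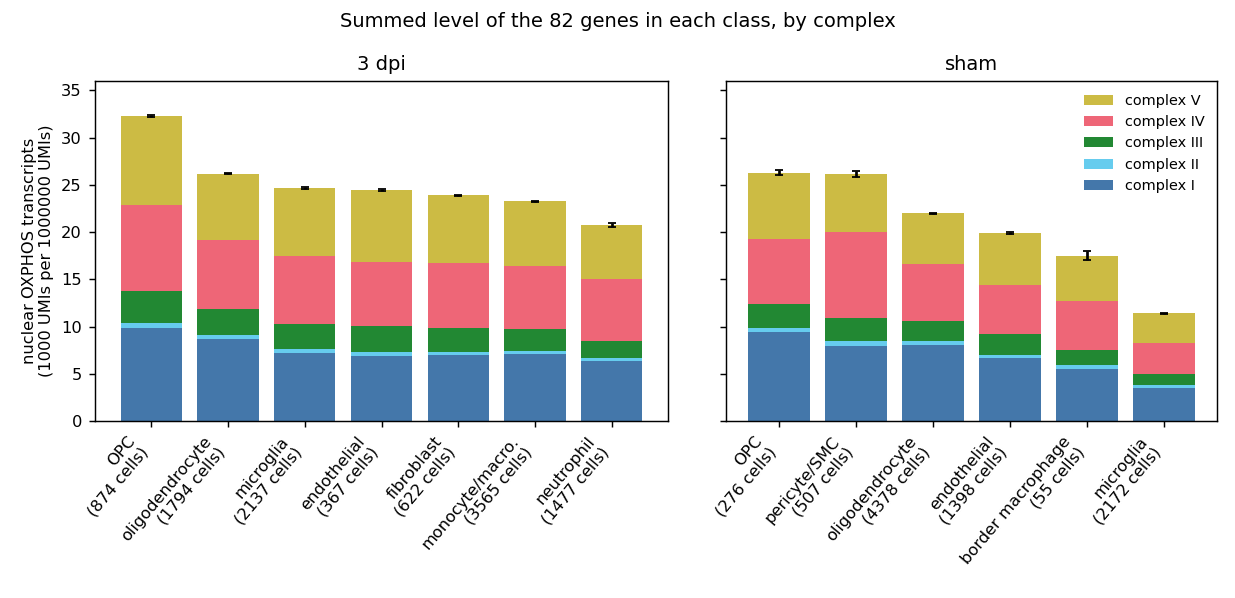
Summed level of the 82 genes (vertical axis, 1000 UMIs per 1000000 UMIs) in each named class of at least 50 cells (horizontal axis, with cell numbers) at 3 dpi (left) and in sham (right), stacked by complex; error bars are 95% counting intervals of the sum. Precursor-like cells stand highest in both panels, and microglia-like cells come after 2 other classes at 3 dpi with 24676 CPM and last in sham with 11424 CPM.

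The low level of sham microglia-like cells ran through all 5 complexes. Relative to the median class of the sham library they lay at log2 -1.06 for complex I, -0.60 for complex II, -0.88 for complex III, -0.75 for complex IV and -0.80 for complex V. Set against the median of the other 5 classes, 30 of 74 measured members were at least 2-fold lower and 0 were 2-fold higher, while of all genes measured 15.4% were lower and 15.2% higher. The median member lay at log2 -0.91 and the median of all genes at -0.30. The 30 included 17 of 35 complex I genes, among them Ndufb2, an accessory subunit, with 48.9 CPM against a median of 141 CPM over the 6 classes, and Ndufs5, also accessory, with 111 CPM against 293 CPM. Atp5g3, one of 3 genes for the c subunit of the ATP synthase rotor, had 74.9 CPM there against a median of 175 CPM. Cox7a2l, a Cox7a relative that takes part in joining complexes III and IV, went the other way. It had 488 CPM in sham microglia-like cells and between 195 and 359.9 CPM in the other sham classes. Sdha, Ndufa4, Ndufa8, Ndufa9, Ndufs1 and Atp5g2 had their lowest sham level in a class other than microglia-like cells. In single sham cells the quartiles of the share of UMIs from the 82 genes were 0.931% and 1.30% in microglia-like cells. The quartiles of border-associated-macrophage-like cells, 1.24% and 1.81%, overlapped that range. In the other named sham classes of at least 50 cells the lower quartile was 1.74% or above. Between libraries, the quartiles of 3 dpi microglia-like cells were 2.24% and 2.66%. Within the class, sham clusters 8 (1064 cells) and 9 (1007 cells) had 10584 and 12245 CPM. Cluster 28, 86 cells with a median of 842 UMIs, had 19155 CPM.

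At 3 dpi the neutrophil-like cells were the low class. Against the median of the other 6 classes, 11 of 74 measured members were at least 2-fold lower and 0 were 2-fold higher, below the 18.3% and 19.2% of all genes. The 11 were Ndufa5, Ndufa9, Ndufa10, Ndufa11 and Ndufc2 of complex I, Ndufa4 and Cox7c of complex IV, and Atp5d, Atp5g1, Atp5g2 and Atp5g3 of complex V. Ndufa5, an accessory subunit of the matrix arm, had 40.7 CPM in neutrophil-like cells and between 148 and 392 CPM in the other 6 classes. All 3 c subunit genes were low, with Atp5g2 at 267 CPM against 436 to 991 CPM elsewhere. Other members were high in the same cells: Cox8a, a small complex IV subunit, had 1419 CPM, close to the 1448 CPM of precursor-like cells, and Atp5e, the epsilon subunit of the ATP synthase central stalk, was highest there with 927 CPM. Neutrophil-like cells were shallow, with a median of 1040 UMIs, and their summed level lay at log2 -0.23 under the median class, or -0.30 in male-derived and -0.07 in female-derived cells. Neutrophil-like cells of the sham library numbered 15 and were not compared.

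The members that varied most over classes differed in part between the libraries, with Ndufa4l2, Ndufa4 and Ndufa5 among the 8 widest in both. The classes taken in differed too. Neutrophil-like, fibroblast-like and monocyte- or macrophage-like cells entered only at 3 dpi. Pericyte- or smooth-muscle-like and border-associated-macrophage-like cells entered only in sham, so the ranges do not cover like classes. Of the 8 with the widest log2 range at 3 dpi, among members that reached 50 CPM in a named class of at least 50 cells, 7 were highest in precursor-like and lowest in neutrophil-like cells, and the eighth was Ndufa4l2. Cox6b2, which stayed under 50 CPM, had a range of 2.39, wider than that of Ndufa4 at 2.33. Of the 8 widest in sham 4 were highest in pericyte- or smooth-muscle-like cells (Ndufa4l2, Cox4i2, Ndufb2 and Uqcr10) and 4 in precursor-like cells (Ndufa4, Ndufa5, Ndufs5 and Atp5g3). At 3 dpi Ndufa4 had 1007 CPM in precursor-like cells and 193 CPM in neutrophil-like cells, Ndufc2, a complex I accessory subunit, 377 and 78.6 CPM, and Cox7c, a small complex IV subunit, 999 and 293 CPM. Ndufa10 and Ndufa9, further accessory subunits, had 212 and 107 CPM in precursor-like cells and 59.7 and 27.5 CPM in neutrophil-like cells. In precursor-like cells at 3 dpi 3 of 75 members (Ndufa5, Ndufa4 and Cox6b2) were 2-fold above the median of the other classes, against 24.0% of all genes, so the class was high by a small margin in many members: the median member lay at log2 0.44, as did the median of all genes. Against the other sham classes, the median member lay at log2 0.48 in precursor-like cells and the median of all genes at 0.45. For sham pericyte- or smooth-muscle-like cells these medians were 0.26 and 0.24. The high place of both classes in the summed level thus went with a like shift of all genes. In oligodendrocyte-like cells complex I made up 33.3% of the summed level at 3 dpi and 36.7% in sham, against 28.3% to 30.7% in the other named classes of at least 50 cells at 3 dpi and 30.3% to 35.8% in sham. Ndufb9, an accessory subunit, had 621 and 514 CPM.

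**Figure D2:**
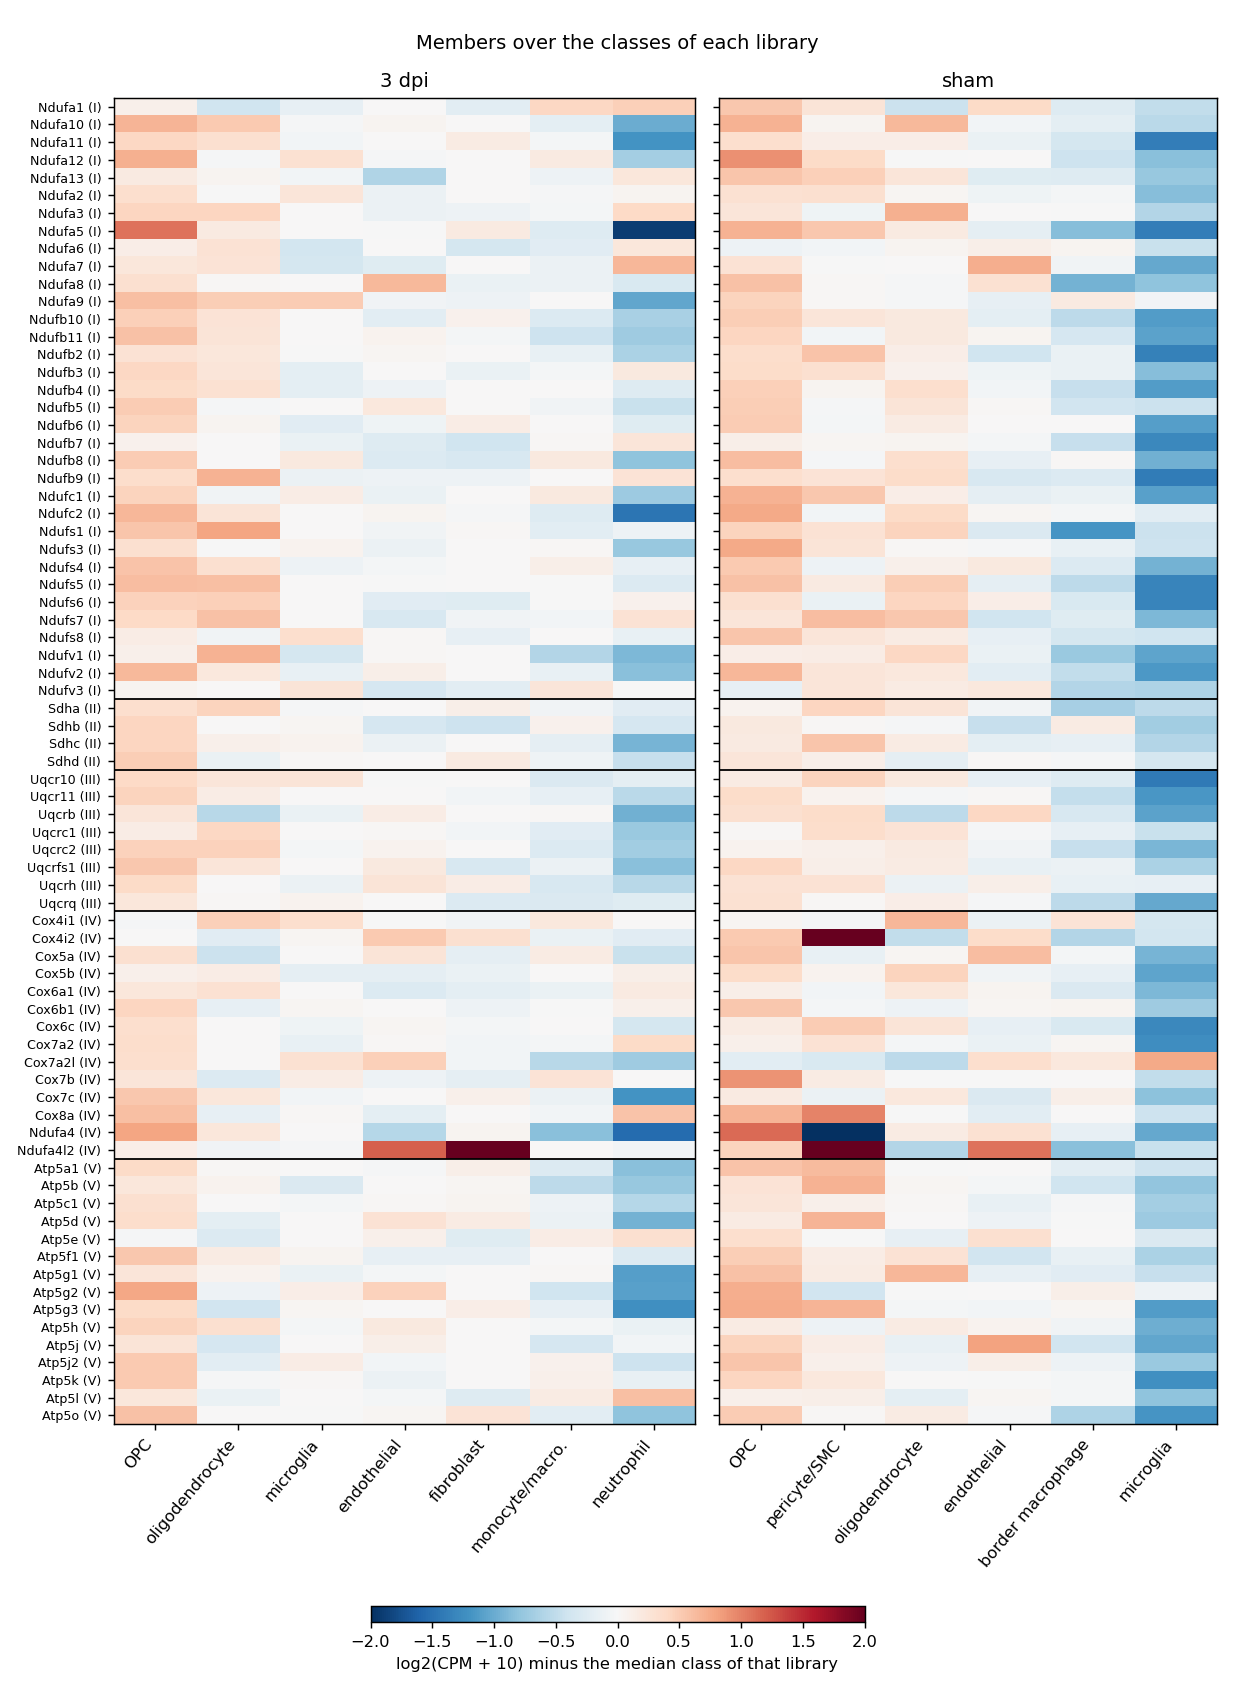
Each row is 1 of 75 members that reached 50 CPM in a named class, grouped by complex (in brackets), and each column a class at 3 dpi (left) or in sham (right); colour gives log2(CPM + 10) minus the median class of the same library, clipped at 2 and -2. Sham microglia-like cells are blue in most rows and red for Cox7a2l, and the pericyte- or smooth-muscle-like column is dark red for Ndufa4l2 and Cox4i2 and dark blue for Ndufa4.

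Pericyte- or smooth-muscle-like cells held mostly Ndufa4l2 where the other classes held Ndufa4. In the 507 such cells of the sham library Ndufa4l2, a relative of Ndufa4 that is known as a marker of brain pericytes in the mouse and as a target of the hypoxia response, had 2454 CPM, and Ndufa4 had 106 CPM. Ndufa4l2 thus made up 95.9% [95.1 to 96.6] of the pair's UMIs. The next highest sham class was endothelial-like with 27.9 CPM, 88.0-fold [75.3 to 103] lower, and oligodendrocyte-like cells, which should lack the gene, had 1.95 CPM. Ndufa4 was the reverse: its lowest sham level was in these cells, and precursor-like cells with 1014 CPM were 9.60-fold [7.93 to 11.7] higher. Thinned to 1000 UMIs per cell, 86.0% of 477 pericyte- or smooth-muscle-like cells held a Ndufa4l2 UMI, against 0.277% of 4335 oligodendrocyte-like cells. Without thinning the shares were 93.9% and 1.92%, at median depths of 1857 and 7622 UMIs.

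Cox4i2, the second form of subunit 4 of complex IV and known from lung and from pericytes and smooth muscle, was high in the same cells. It had 956 CPM there beside 833 CPM of Cox4i1, the form of most tissues, and so 53.4% [51.2 to 55.7] of the pair. The next highest sham class was precursor-like with 11.6 CPM. Cox4i1 itself was not low in pericyte- or smooth-muscle-like cells, since precursor-like cells had 876 CPM and endothelial-like cells 786 CPM, whereas Ndufa4 was low where Ndufa4l2 was high. Of the 507 cells, 388 held UMIs of both Ndufa4l2 and Cox4i2, 88 of Ndufa4l2 alone, 14 of Cox4i2 alone and 17 of neither. The 140 cells with a UMI of Acta2, Myh11 or Tagln, genes of the contractile apparatus of smooth muscle, had 1859.8 CPM of Ndufa4l2 and 217 CPM of Ndufa4. The 367 cells without one had 2775 and 45.6 CPM. Median depths were 2194 UMIs with and 1765 UMIs without, and at such depths a single UMI does not sort smooth muscle cells from pericytes. That split was chosen after the values of the class had been seen. Oligodendrocyte markers summed to 5249 CPM in the class, against 61876 CPM in oligodendrocyte-like cells.

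Complex IV stood out in this class for these genes. Its summed level was 9089 CPM, log2 0.70 above the median sham class, and Ndufa4l2 gave 27.0% and Cox4i2 10.5% of it. Without both genes it was 5679 CPM against a median of 5445 CPM, or log2 0.06. Against the median of the other sham classes 5 of 77 members were 2-fold higher (among them Ndufa4l2, Cox4i2, Cox6b2 and Cox8a, against 17.7% of all genes) and 1 was 2-fold lower (Ndufa4, against 6.12%). Cox8a had 1201 CPM in the class. The 3 dpi library held 6 pericyte- or smooth-muscle-like cells, so the pair could not be compared between libraries. The highest Ndufa4l2 level at 3 dpi was 107 CPM in fibroblast-like cells, with 94.4 CPM in cluster 17 and 146 CPM in cluster 23, next to 599 CPM of Ndufa4. Pericyte and smooth muscle markers summed to 1503 CPM in those cells, and their part in the Ndufa4l2 level was not tested.

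**Figure D3:**
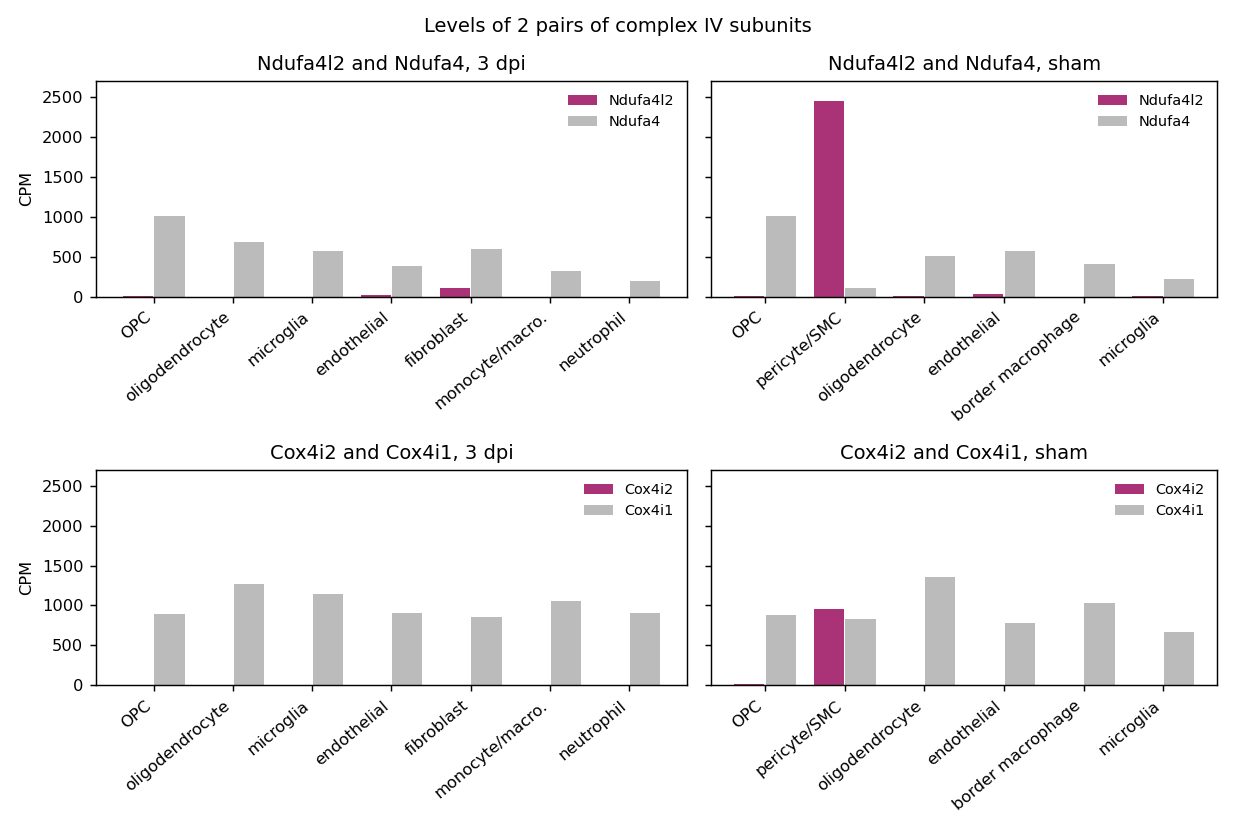
CPM (vertical axis) of Ndufa4l2 beside Ndufa4 (top) and of Cox4i2 beside Cox4i1 (bottom) in the named classes (horizontal axis) at 3 dpi (left) and in sham (right), without error bars. In the sham pericyte- or smooth-muscle-like class Ndufa4l2 reaches 2454 CPM and Cox4i2 956 CPM, and in no other class does either exceed 107 CPM.

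The forms of complex IV subunits known from muscle or testis were scarce, with patterns of their own. Cox6a2, the heart and skeletal muscle form of subunit 6a, had 19.1 CPM [17.6 to 20.7] in 3 dpi microglia-like cells and 11.6 CPM [9.53 to 14.1] in sham microglia-like cells, or 4.78% and 7.17% of the pair with Cox6a1. In other named classes it was at or below 4.62 CPM, and it had no UMI in sham endothelial-like, precursor-like or pericyte- or smooth-muscle-like cells. Cox7a1, the muscle form of subunit 7a, had 17.1 CPM in monocyte- or macrophage-like cells at 3 dpi and 14.8 CPM in sham pericyte- or smooth-muscle-like cells, beside 477 and 483 CPM of Cox7a2. The first value came from 530 UMIs and the second from only 16. In microglia-like cells Cox7a1 had 8.31 CPM at 3 dpi (257 UMIs) and 1.09 CPM in sham (10 UMIs). Cox6b2, the testis form of subunit 6b, was highest in precursor-like cells at 3 dpi with 48.3 CPM, against 19.1 CPM in sham precursor-like cells, and had 34.3 CPM in sham pericyte- or smooth-muscle-like and 27.8 CPM in 3 dpi fibroblast-like cells. The 2 sham values came from 28 and 37 UMIs. Cox7b2 and Cox8b were almost absent over all kept cells. The first, a testis form, had 10 UMIs at 3 dpi and 13 in sham, and the second, the muscle form of subunit 8, had 2 and 1 UMIs.

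Between the libraries, the members were higher at 3 dpi in microglia-like cells, by 2.16-fold [2.15 to 2.17] for their sum, which was 24676 CPM at 3 dpi and 11424 CPM in sham. A member counts here as higher or lower if its CPM, with 10 CPM added in both libraries, differed by at least 2-fold, and as measured if it reached 20 CPM in either library; with 1 library per group this is a rule of size. Of 74 measured members 38 were higher and 0 lower at 3 dpi, while 12% of the 6259 genes measured in these cells were higher and 15.5% lower. With 10 CPM added, genes near 20 CPM need a larger fold to be called than abundant genes, as most members were. The shares of all genes were not matched to the members for level. The median member had a log2 ratio of 1.05 and the median gene -0.13, and 72 of the 74 ratios were above 0. Of 5 complexes 4 were at least 2-fold higher: complex I with 7247 CPM at 3 dpi against 3512 CPM in sham, complex III with 2684 against 1152 CPM, complex IV with 7157 against 3329.8 CPM and complex V with 7199 against 3153 CPM. Complex II had 389 against 277 CPM, a ratio of 1.41 [1.35 to 1.47].

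Among single members in microglia-like cells, the highest ratios came from complexes I, III, IV and V. Uqcr10 had 435 CPM at 3 dpi against 98.9 CPM in sham, a log2 ratio of 2.03. Uqcrq, another small complex III subunit, had 665 against 156 CPM (2.02), and Cox5a, a complex IV subunit on the matrix side, 548 against 141 CPM (1.89). Ndufc1 of complex I, with 289.9 against 72.3 CPM, and Atp5k, with 398 against 107 CPM, followed at 1.87 and 1.81. At the other end Cox7a2l had 328 CPM at 3 dpi against 488 CPM in sham, the lowest log2 ratio of the measured members at -0.56 and short of 2-fold. Sdha had 86.6 against 96.0 CPM (-0.13), Ndufs1, the largest iron-sulfur subunit of complex I, 34.0 against 32.1 CPM (0.06), Ndufa6, an accessory subunit, 139.8 against 132 CPM (0.08) and Sdhd 52.8 against 45.6 CPM (0.18).

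Grouped by role, a split made after the values were seen, the 28 accessory subunits of complex I were 2.16-fold higher in sum, and 15 of them were called higher, against 12% of all genes. Of the core subunits that carry redox centres or bind substrates, Ndufs1, Ndufs3, Ndufs7, Ndufs8, Ndufv1 and Ndufv2 had 702 CPM in sum at 3 dpi against 442 CPM in sham, a ratio of 1.59, and 0 of 6 were called. These 6 have coding lengths of 636 nucleotides (Ndufs8) to 2181 (Ndufs1), and most accessory genes are shorter. Role was not separated from length, which is taken up further on. In the ATP synthase the 5 subunits of the head (Atp5a1 and Atp5b) and central stalk (Atp5c1, Atp5d and Atp5e) had a ratio of 1.96 in sum. Of these 5, 2 were called higher, Atp5d and Atp5e of the stalk. The 8 other genes with Atp5 names, the c subunit genes aside, were 2.46-fold higher in sum, and 5 of 7 measured were called higher. The c subunit genes Atp5g1, Atp5g2 and Atp5g3 were 2.55-fold higher in sum, with 535 against 164 CPM for Atp5g1, 635 against 323 CPM for Atp5g2 and 259.6 against 74.9 CPM for Atp5g3. These 3 genes encode closely similar proteins, and how reads shared by such copies were assigned is left unstated in the labels and notes.

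The cells compared differed in other measures too. Nearly all 3 dpi microglia-like cells fell in clusters 4 and 11 and nearly all sham ones in clusters 8, 9 and 28. The 3 dpi levels were 24625 CPM in cluster 4 and 24737 CPM in cluster 11, although Mki67, a marker of dividing cells, had 68.7 and 486 CPM there. Median depth was 13520 UMIs at 3 dpi and 3846 in sham. The 10 microglia markers summed to 5569 CPM at 3 dpi and 18861 CPM in sham, and the 10 monocyte and macrophage markers to 3093 and 90.6 CPM, with Ly6c2, Chil3 and Arg1 at 0 in sham. The 9 oligodendrocyte markers summed to 275 CPM at 3 dpi and 2436 CPM in sham. In cells of 3000 to 10000 UMIs of both libraries the summed log2 ratio was 1.03, with ribosomal protein genes left out of the totals it was 1.18, and with 5% free RNA subtracted 1.17, against 1.11 for all cells. The part of the marker shifts was not tested.

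In the other 3 classes present in both libraries the sum differed by under 2-fold. It was 26182 CPM at 3 dpi against 22010.1 CPM in sham in oligodendrocyte-like cells (1.19-fold), 32346 against 26264 CPM in precursor-like cells (1.23-fold) and 24441 against 19918 CPM in endothelial-like cells (1.23-fold). No member of 74 was called in oligodendrocyte-like cells, where 5.62% of all genes were higher and 4.21% lower. In precursor-like cells Cox6b2 was higher and 0 of 75 were lower, against 7.46% and 13.8% of all genes. In endothelial-like cells Atp5g1 and Atp5g2 were higher and 0 of 75 were lower, against 8.29% and 14.4%. Atp5g1 had 573 CPM at 3 dpi against 204 CPM in sham endothelial-like cells and Atp5g2 798 against 350.4 CPM. The libraries stood in different clusters in these classes too: 7 and 13 at 3 dpi against 1, 5, 12, 16 and 26 in sham for most oligodendrocyte-like cells, 10 against 21 for precursor-like and 18 against 3 for endothelial-like cells. Relative to median-of-ratios scaling, CPM shifts log2 ratios by -0.16 in microglia-like, -0.03 in oligodendrocyte-like and -0.33 in both precursor-like and endothelial-like cells. With that scaling 8 members were higher in endothelial-like and 7 in precursor-like cells, 43 in microglia-like and 0 in oligodendrocyte-like cells. Ribosomal protein genes took 23.7% of UMIs at 3 dpi and 9.94% in sham in endothelial-like cells, 17.8% and 6.88% in precursor-like, 9.82% and 4.65% in oligodendrocyte-like, and 18.0% and 14% in microglia-like cells.

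The complexes differed from each other in these classes. Complexes III, IV and V had log2 ratios of 0.42, 0.28 and 0.36 in oligodendrocyte-like cells, 0.43, 0.40 and 0.44 in precursor-like cells and 0.39, 0.37 and 0.46 in endothelial-like cells. Complex I was nearer to 0, at 0.11, 0.07 and 0.06 in the same order of classes. Complex II stood at -0.13 in oligodendrocyte-like, 0.11 in precursor-like and -0.11 in endothelial-like cells, and in endothelial-like cells its sign, and that of complex I, turned under some of the alternatives.

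**Figure D4:**
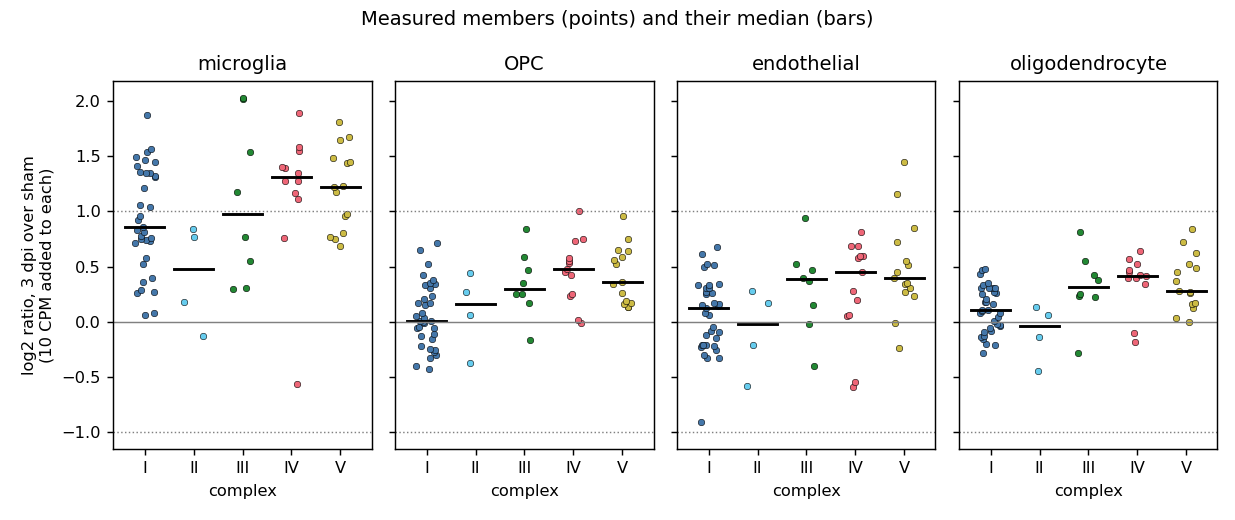
Log2 ratio, 3 dpi over sham, after adding 10 CPM (vertical axis), of each measured member (points), by complex (horizontal axis), in the 4 classes compared; black bars are medians and dotted lines mark 2-fold. In microglia-like cells 38 points lie at or above the upper line, against 1 in precursor-like, 2 in endothelial-like and 0 in oligodendrocyte-like cells.

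Some members lay near the same end of the order in more than 1 class, but the comparisons share both libraries and are set side by side only as values. Uqcrq had log2 ratios of 2.02 in microglia-like, 0.81 in oligodendrocyte-like, 0.84 in precursor-like and 0.94 in endothelial-like cells. Atp5g1 had 1.65, 0.72, 0.96 and 1.45 in the same order. Sdha had -0.13, -0.45, -0.37 and -0.58, and Ndufv1, the NADH-binding subunit of complex I, 0.29, -0.13, -0.43 and -0.26. Atp5e led in oligodendrocyte-like cells with 613 CPM at 3 dpi against 337 CPM in sham (0.84). Cox7b and Cox7c, small complex IV subunits, were near the top of several classes, with 0.64 for Cox7b in oligodendrocyte-like cells, 0.81 for Cox7b in endothelial-like cells and 0.75 for Cox7c in precursor-like cells. Ndufa7, an accessory subunit of complex I, had the lowest ratio in endothelial-like cells, with 282 CPM at 3 dpi against 539 CPM in sham (-0.91, under 2-fold). Ndufa4 had 385 against 567 CPM there (-0.55), while in microglia-like cells it had 577 against 220.2 CPM. Among the low end of precursor-like and oligodendrocyte-like cells were core subunits of complex I: Ndufs3 had -0.40 and Ndufs8 -0.33 in precursor-like cells, and Ndufs7 had -0.28 and Ndufs8 -0.16 in oligodendrocyte-like cells. Uqcrc2, a core protein of complex III, had -0.28 in oligodendrocyte-like and -0.40 in endothelial-like cells. Ndufb10, an accessory subunit, had -0.30 in precursor-like and -0.21 in oligodendrocyte-like cells.

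In microglia-like cells the median ratio was lower in each longer range of coding length, in members and in other genes, while in oligodendrocyte-like and precursor-like cells the members' medians did not follow length in order. The members are short, with a median of 409.5 coding nucleotides against 1242 for all genes measured in microglia-like cells, from 156 for Atp5e to 2181 for Ndufs1. In microglia-like cells, members under 400 nucleotides had a median log2 ratio of 1.35 and 26 of 33 were called higher, while other genes of that length, ribosomal protein genes aside, had a median of 0.67 and 34.5% were called higher. From 400 to under 800 nucleotides the medians were 0.96 for 27 members and 0.27 for other genes, from 800 to under 1600 they were 0.69 for 11 members and -0.14, and from 1600 on 0.06 for 3 members (Sdha and Ndufs1 among them) and -0.43. The median of the members was the higher one in each range. In oligodendrocyte-like cells the medians under 400 nucleotides were 0.40 for members and 0.24 for other genes, from 400 to under 800 nucleotides 0.12 and 0.10, and from 800 to under 1600 nucleotides 0.21 and -0.02. In precursor-like cells the medians in those 3 ranges were 0.40, 0.13 and 0.19 for members and 0.16, -0.07 and -0.28 for other genes. In endothelial-like cells they were 0.34, 0.25 and 0.17 for members and 0.20, -0.01 and -0.23 for other genes. Ribosomal protein genes under 400 nucleotides, short as well, had medians of 0.43 in microglia-like, 1.14 in oligodendrocyte-like, 1.55 in precursor-like and 1.28 in endothelial-like cells. Whether length or what goes with it plays a part in the members' ratios was not tested.

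**Figure D5:**
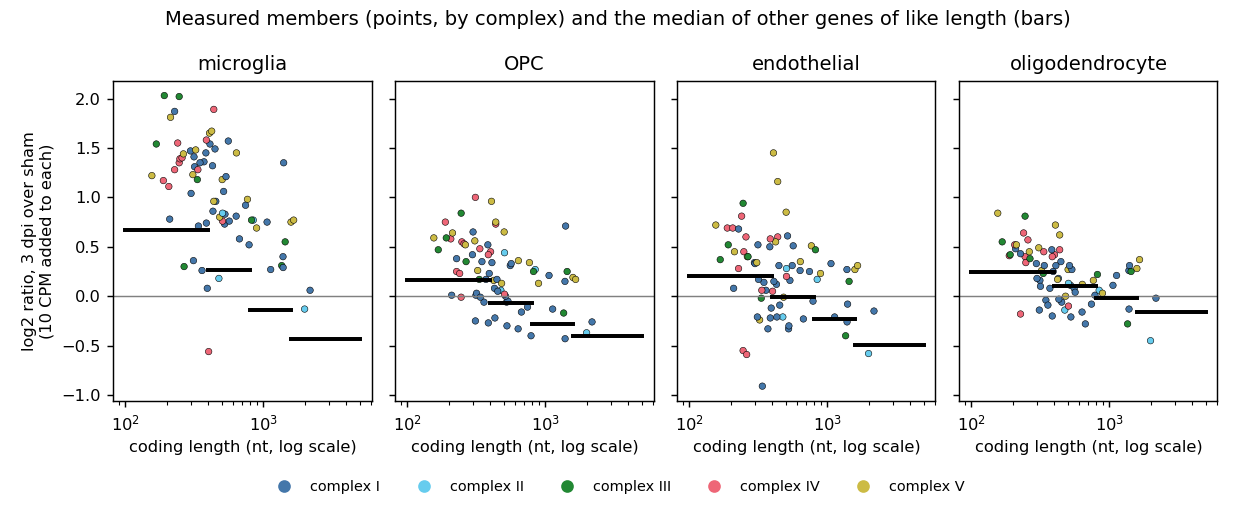
Log2 ratio of 3 dpi over sham (vertical axis) of the measured members (points, coloured by complex) against their coding length in nucleotides (horizontal log axis) in the 4 classes; black bars give the median of other genes, ribosomal protein genes left out, in 4 ranges of length. The bars fall with length in all 4 panels, from 0.67 to -0.43 in microglia-like cells, where most points lie above them.

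Other mitochondrial genes were counted in the same way, from lists written for this pathway, and are to be read against the 12% of all genes that were higher and the 15.5% that were lower in microglia-like cells. In microglia-like cells 7 of 12 measured genes listed as subunits or carriers that the name patterns leave out were higher at 3 dpi. The 12 had a median log2 ratio of 1.12, and 0 were lower. The highest on the list was 1110008P14Rik with 53.1 against 9.35 CPM. That it encodes a subunit or carrier is not shown here, and the counts include it. The lowest was Higd2a, a factor of complex IV assembly and supercomplexes, with 152 against 145 CPM. Of 70 mitochondrial ribosomal proteins, which translate the mitochondrial DNA's own subunits, 29 were higher (median 0.86), led by Mrpl51 with 209 against 47.2 CPM. Of 18 import genes 7 were higher (median 0.80), led by Timm13, a small chaperone between the membranes, with 345 against 92.8 CPM. Of 26 assembly factors 4 were higher (median 0.52), from Cmc2 with 64.5 against 11.3 CPM to Ndufaf7 with 21.2 against 35.0 CPM. Of 17 genes of the TCA cycle, which feeds electrons to complexes I and II, 0 were called (median 0.37), from Mdh2 with 197 against 94.2 CPM to Dlst with 47.8 against 65.8 CPM. Of 7 regulators of mitochondrial biogenesis 0 were called (median -0.37), Ssbp1 with 60.8 CPM in both libraries being the highest. Glycolysis, which makes ATP without oxygen, had 10 of 13 genes higher with a median of 2.29. Pgk1 had 418 CPM at 3 dpi against 51.5 CPM in sham, while Hk2 had 225 against 422 CPM.

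Outside microglia-like cells few genes of these lists were called, apart from glycolysis. Of all genes 5.62% were higher and 4.21% lower in oligodendrocyte-like cells, 7.46% and 13.8% in precursor-like, and 8.29% and 14.4% in endothelial-like cells. Glycolysis genes were higher in 3 of 12 in oligodendrocyte-like, 5 of 14 in precursor-like and 6 of 14 in endothelial-like cells. Ldha, which makes lactate, had 138 against 10.0 CPM in oligodendrocyte-like cells, and Slc2a1, the glucose transporter of brain endothelium, fell to 788 CPM at 3 dpi against 2472 CPM in sham endothelial-like cells. Of the mitochondrial ribosomal proteins 5 of 72 were higher in endothelial-like, 2 of 76 in precursor-like and 0 of 71 in oligodendrocyte-like cells, near or below those shares, with Mrps6 at 434 against 44.3 CPM in precursor-like cells. Of the biogenesis regulators 2 of 9 were lower in precursor-like cells, where Ppargc1a, a coactivator of mitochondrial genes, had 2.99 CPM at 3 dpi against 36.1 CPM in sham. Assembly factors fell in single cases: Ttc19, a complex III factor, had 56.5 against 176 CPM in precursor-like cells and Ndufaf7, a complex I methyltransferase, 16.6 against 62.2 CPM in endothelial-like cells. No TCA cycle gene was called in these 3 classes.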

How the data were processed

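Single-cell libraries were made with the 10X Chromium 3′ reagents (v.3), per the labels' protocols. The deposited tables hold raw UMI counts per gene and barcode, which the authors made before any scaling. The submitters' processing notes name Cell Ranger, Seurat and GRCh38, a human build, while the gene symbols are mouse symbols, so positions and coding lengths came from RefSeq and GENCODE tables of mouse GRCm38. Cells needed 200 genes and 500 UMIs. Doublets were scored against simulated ones, and the expected 0.8% per 1000 cells was removed (10.9% at 3 dpi and 8.10% in sham). Both libraries were clustered together (2000 variable genes without members, list, ribosomal and sex-linked genes, 30 principal components, 15 neighbours, Leiden resolution 1.0, 31 clusters) and clusters were named from markers of 17 classes. UMIs were summed per class and library. Male-derived cells held Y-linked UMIs and no Xist UMI, and female-derived cells the reverse. Intervals are exact (Poisson for sums, conditional for ratios, Clopper-Pearson for shares). With 1 library per group, p-values and checks against replicates were not possible.

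The members, lists, role groups and named-gene rule were chosen with earlier results of these data known. Named are the 5 members with the highest and lowest log2 ratio per class compared, the 8 with the widest range over classes of at least 50 cells per library among members at 50 CPM or more in their highest class, both forms of tissue-specific pairs, members under 10 UMIs in all, the member with the highest level of each complex per library, and the ends of each list; other members named in the text were chosen after their values were seen. The size rule was tried on simulated counts with planted changes and counting error only. That trial cannot show how the rule behaves under differences among mice, cells or libraries. The values of 1 member are not reported here. The tools were leidenalg 0.10.2 with igraph 0.11.9 for clusters, scikit-learn 1.9.0 for components and neighbours, scipy 1.17.1 for intervals, pandas 2.3.3 and numpy 2.4.6 for tables and matplotlib 3.10.9 for plots, under Python 3.11.15.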

Additional observations from a re-analysis of the deposited data

How the results depend on the processing

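The summed log2 ratio of 3 dpi over sham kept its sign in the 4 classes under all 17 alternatives that gave a value, with ranges of 1.03 to 1.27 in microglia-like, 0.23 to 0.33 in oligodendrocyte-like, 0.29 to 0.63 in precursor-like and 0.24 to 0.62 in endothelial-like cells. Median-of-ratios scaling gave 1.27, 0.28, 0.63 and 0.62 in that order, and totals without ribosomal protein genes 1.18, 0.33, 0.48 and 0.53. Cells weighted equally gave 1.09, 0.24, 0.32 and 0.26. In microglia-like cells a stricter cell filter gave 1.12, 5% free RNA subtracted 1.17, male-derived cells 1.15 and cells of 3000 to 10000 UMIs 1.03. In oligodendrocyte-like cells doublets kept gave 0.24, finer clusters, members allowed for clustering and female-derived cells 0.23 each, and male-derived cells and cells of 3000 to 10000 UMIs 0.26 each. In precursor-like cells coarser clusters and unnamed clusters placed by their first class gave 0.32 each. In endothelial-like cells male-derived cells gave 0.33, female-derived cells and placed unnamed clusters 0.24 each, and cells of 3000 to 10000 UMIs 0.26. The last 2 alternatives, cells of 3000 to 10000 UMIs and placed unnamed clusters, were chosen after seeing the data.

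In microglia-like cells 38 to 43 members were higher and 0 lower, and 3 to 4 complexes were higher, under all alternatives run. In endothelial-like cells the count of higher members moved to 8 with median-of-ratios scaling, 5 with totals without ribosomal protein genes, and 1 with cells weighted equally or of 3000 to 10000 UMIs, and lower members to 1 in cells of 3000 to 10000 UMIs and 2 with placed unnamed clusters. In precursor-like cells the count of higher members moved to 7 with median-of-ratios scaling and 3 with totals without ribosomal protein genes, and to 0 with a floor of 50 CPM, doublets kept, the stricter filter, coarser clusters, members allowed for clustering, male-derived cells and placed unnamed clusters; without a floor 1 member was lower. For neutrophil-like cells at 3 dpi the log2 distance to the median class was -0.40 with totals without ribosomal protein genes, -0.18 with cells weighted equally, -0.25 with doublets kept, -0.21 with the stricter filter, -0.22 with coarser clusters or placed unnamed clusters, -0.20 with finer clusters, -0.30 in male-derived and -0.07 in female-derived cells. The cause of these moves was not tested.

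The Ndufa4l2 level of sham pericyte- or smooth-muscle-like cells lay between 2258 and 2578 CPM and that of Cox4i2 between 808 and 1004 CPM under the alternatives run on them. No value could be had for microglia-like cells with doublets kept, for oligodendrocyte-like cells with coarser clusters or for neutrophil-like cells of 3000 to 10000 UMIs, where a class had under 50 cells, and 0 rows with -ps in their name were there to be added. No paired analysis was possible because each group was 1 library. Classes of under 50 cells in a library could not be compared, and members under 20 CPM in both libraries are limited by depth.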

Other observations

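Clusters without a name are given here as values. Cluster 14 (516 cells at 3 dpi), whose first class was microglia-like with monocyte- or macrophage-like close behind, had 25265 CPM of the 82 genes. Cluster 20 (313 cells at 3 dpi) had 23254 CPM and the highest Cox6a2 level of the clusters of at least 50 cells, 27.2 CPM, from 47 UMIs in 16 of the 313 cells (5.11%). Microglia-like cluster 4 had 23.1 CPM, with a Cox6a2 UMI in 21.2% of its cells. Cluster 22 (189 cells at 3 dpi) had 28674 CPM and 62.1 CPM of Cox6b2. Cluster 24 (171 cells at 3 dpi, median 1366 UMIs) had 18933 CPM, with 34.2% of its UMIs from ribosomal protein genes. Cluster 27 (73 cells in sham) had 25463 CPM. Cluster 19 (323 cells in sham), with markers of endothelial cells and of pericytes or smooth muscle, had 22186 CPM, with 785 CPM of Ndufa4l2 beside 449.9 CPM of Ndufa4 and 303 CPM of Cox4i2 beside 759 CPM of Cox4i1.

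Classes under 50 cells in a library had too few cells to be compared. Neuron-like cells had 28249 CPM at 3 dpi (5 cells) and 28828 CPM in sham (21 cells). Border-associated-macrophage-like cells had 27296 CPM at 3 dpi (46 cells) against 17509 CPM in sham (55 cells). The sham cells also held 14059 CPM of oligodendrocyte markers. The 15 neutrophil-like cells of the sham library had 9071 CPM and the 16 fibroblast-like cells 15432 CPM.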
